A study of Homo sapiens with 7 samples.

Results

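Expression of 10 genes of prostaglandin synthesis and response was followed in human dermal fibroblasts that overexpressed progerin or prelamin A. The genes were PTGS1, PTGS2, PTGES, PTGIS, PTGDS, HPGD, PTGER2, PTGER4, PTGFR and PTGFRN. Each was read from the probe sets that the array's annotation gives to that gene alone, 25 in all, and the brightest of these by its mean over the arrays stood for the gene. A signal of 100 was reached by 9 of the 10 genes on at least 1 array, which placed them among the 12726 genes tested, of 19775 genes with a probe set of their own. The genes were chosen by name, with the signals of several of them already known to differ between these same arrays, so their values below are a description and are no independent evidence of a change in the pathway.

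Prostaglandins are short-lived lipid signals made from arachidonic acid, which phospholipases release from membranes. Cyclooxygenases, the products of PTGS1 and PTGS2, turn arachidonic acid into prostaglandin H2, and terminal synthases then make prostaglandin E2, prostacyclin and prostaglandin D2 from it. In skin fibroblasts PTGS2 is an immediate early gene that cytokines and growth factors switch on, while PTGS1 is generally regarded as the constitutive form. The products leave the cell, act on G protein-coupled receptors of the same or neighbouring cells and are inactivated by a dehydrogenase encoded by HPGD.

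Progerin is the truncated and permanently farnesylated lamin A of Hutchinson-Gilford progeria, and prelamin A is the farnesylated precursor of mature lamin A. The series held 7 arrays of 6 conditions, all from fibroblasts at passage 10: 1 array of cells overexpressing progerin and treated with FTI, 1 of cells overexpressing progerin, 1 of cells overexpressing prelamin A and ZMPSTE24, 1 of cells overexpressing prelamin A and treated with FTI, 1 of cells overexpressing prelamin A, and 2 of control fibroblasts. FTI, an inhibitor of farnesyltransferase, was L-744832, for which the submitters give 48 h and a dose printed as 10 nm, read here as nanomolar, and ZMPSTE24 is the protease that removes the farnesylated end of prelamin A. For the array with both prelamin A and FTI, the title names FTI without the lamin, whereas the source and treatment labels name both. Lamin constructs were delivered by lentivirus under the viral CMV promoter, and the labels do not say whether the controls carried a vector. For its growth curves the study used control fibroblasts transduced with a lentivirus for green fluorescent protein. Whether the array controls were such cells is not given, so the word transduced below sets the arrays with a lamin construct apart by name only. The labels name a single fibroblast strain for all 7 arrays, while the methods of the study describe work in 2 strains, and whether any array came from the other one is not given in the sources used here.

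All values are signals of the array software MAS 5.0 on a linear scale, and changes are differences of log2(signal + 16), a scale that understates the change of dim probe sets. The median signal of an array lay between 64.9 and 77.0. Both controls shared the only residual degree of freedom of the limma fit of 6 conditions. Every standard error (SE) from that fit measures the spread between 2 control arrays, which may be technical, together with the spread borrowed across genes. A gene was called when its change was over 2-fold with an unadjusted p under 0.05 in that fit, and no gene passed a Benjamini-Hochberg adjusted p of 0.05 in any of these comparisons, while 185 to 1508 genes a comparison had an unadjusted p under 0.05. The controls themselves lay over 2-fold apart for 1181 genes, 9.28% of those tested. All 8 fibroblast markers read at least 100 on every array, with summed signals of 218049 to 259653 on the transduced arrays and 245175 to 270680 on the controls. Among them COL3A1, a collagen gene, was called lower on the prelamin A and FTI array, at 11993 against 35289 and 38721 on the controls, by -1.62 (SE 0.32), and PDGFRB was not called, with -1.15 (SE 0.43) on the prelamin A and ZMPSTE24 array.

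Promoters of the 3 member genes that were called in any comparison with control are shown, since the data turn on them. They are RefSeq sequences on GRCh38.p14, from 250 bases before to 50 bases after the start of transcription, and RefSeq promoters were matched for 9 of the 10 genes. Capitals mark the motifs found, and all 3 genes lie on chromosome 1.
PTGS2, chr1:186680374-186680673, minus strand: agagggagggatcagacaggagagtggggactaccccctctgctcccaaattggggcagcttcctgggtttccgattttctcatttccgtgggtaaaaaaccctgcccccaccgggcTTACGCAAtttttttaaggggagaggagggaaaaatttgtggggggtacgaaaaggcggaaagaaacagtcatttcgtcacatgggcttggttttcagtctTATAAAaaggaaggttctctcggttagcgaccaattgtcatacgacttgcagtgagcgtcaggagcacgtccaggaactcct
PTGFRN, chr1:116909666-116909965, plus strand: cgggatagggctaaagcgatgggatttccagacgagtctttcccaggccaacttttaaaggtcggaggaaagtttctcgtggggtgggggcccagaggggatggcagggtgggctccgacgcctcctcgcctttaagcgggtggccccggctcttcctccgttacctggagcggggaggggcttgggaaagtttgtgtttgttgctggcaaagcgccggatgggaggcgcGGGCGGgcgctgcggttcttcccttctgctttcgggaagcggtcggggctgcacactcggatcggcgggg
PTGFR, chr1:78490724-78491023, plus strand: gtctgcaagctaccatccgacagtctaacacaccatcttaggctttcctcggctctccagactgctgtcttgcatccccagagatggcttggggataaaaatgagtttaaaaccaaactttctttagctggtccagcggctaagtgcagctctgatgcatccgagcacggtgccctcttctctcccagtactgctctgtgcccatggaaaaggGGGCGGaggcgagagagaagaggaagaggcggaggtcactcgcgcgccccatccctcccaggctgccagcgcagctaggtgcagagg
The search covered 7 motifs on both strands: C/EBP as TTNCGCAA, CRE as TGACGTCA, AP-1 as TGANTCA, and NF-kappaB by its usual consensus. The E-box was searched as CACGTG. The letters searched for a GC box were GGGCGG. For the TATA box they were TATAAA. The PTGS2 promoter held TTACGCAA at position -133 and TATAAA at position -32 from the start of transcription, and over all 35116 RefSeq promoters of this length these motifs were present in 0.891% and 11.5%. PTGFRN and PTGFR each held 1 GC box, at -20 and -37, a motif present in 45.0% of all promoters. The other motifs, which occurred in 1.85% (CRE), 7.71% (AP-1), 7.26% (E-box) and 5.91% (NF-kappaB) of all promoters, had no match in these 3 windows, which says only that these letters are not there. Only exact matches were counted, so a site that varies from the searched letters would not be marked.

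PTGS2, the inducible cyclooxygenase, was lower on every transduced array than on both controls. Its brightest probe set, 204748_at, read 561 on the progerin and FTI array, 645 on the progerin array, 1424 on the prelamin A and ZMPSTE24 array, 398 on the prelamin A and FTI array and 1940 on the prelamin A array, against 6043 and 8181 on the controls. The groups did not overlap, and the progerin arrays and the prelamin A and FTI array formed the low end. Against control the log2 change was -3.41 for progerin, or 10.7-fold lower, and -1.85 for prelamin A, or 3.60-fold lower, each with an SE of 0.37. The controls lay 0.44 apart on the same scale. In RNA of whole cultures, as here, fewer cells that express a gene and less of its RNA per cell cannot be told apart.

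On the treated arrays PTGS2 stayed below the controls as well. The change against control was -3.61 with progerin and FTI, -4.09 with prelamin A and FTI, and -2.29 with prelamin A and ZMPSTE24. Ranked from the lowest of the 12726 changes, PTGS2 stood at place 4 with progerin, with progerin and FTI and with prelamin A and FTI, at place 66 with prelamin A and ZMPSTE24, and at place 133 with prelamin A alone. On all 5 transduced arrays it was more than 2-fold below both controls, as were 0.314% of the genes tested. These 5 comparisons share the control arrays and are not independent of each other.

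The second probe set of PTGS2, 1554997_a_at, gave the same order of arrays. It read 133 with progerin and FTI, 173 with progerin, 327 with prelamin A and ZMPSTE24, 90.5 with prelamin A and FTI and 617 with prelamin A, against 1233 and 1593 on the controls. Its changes were smaller, -2.91 for progerin and -1.16 for prelamin A. The 2 probe sets had a Pearson r of 0.99 over the 7 arrays.

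**Figure D1:**
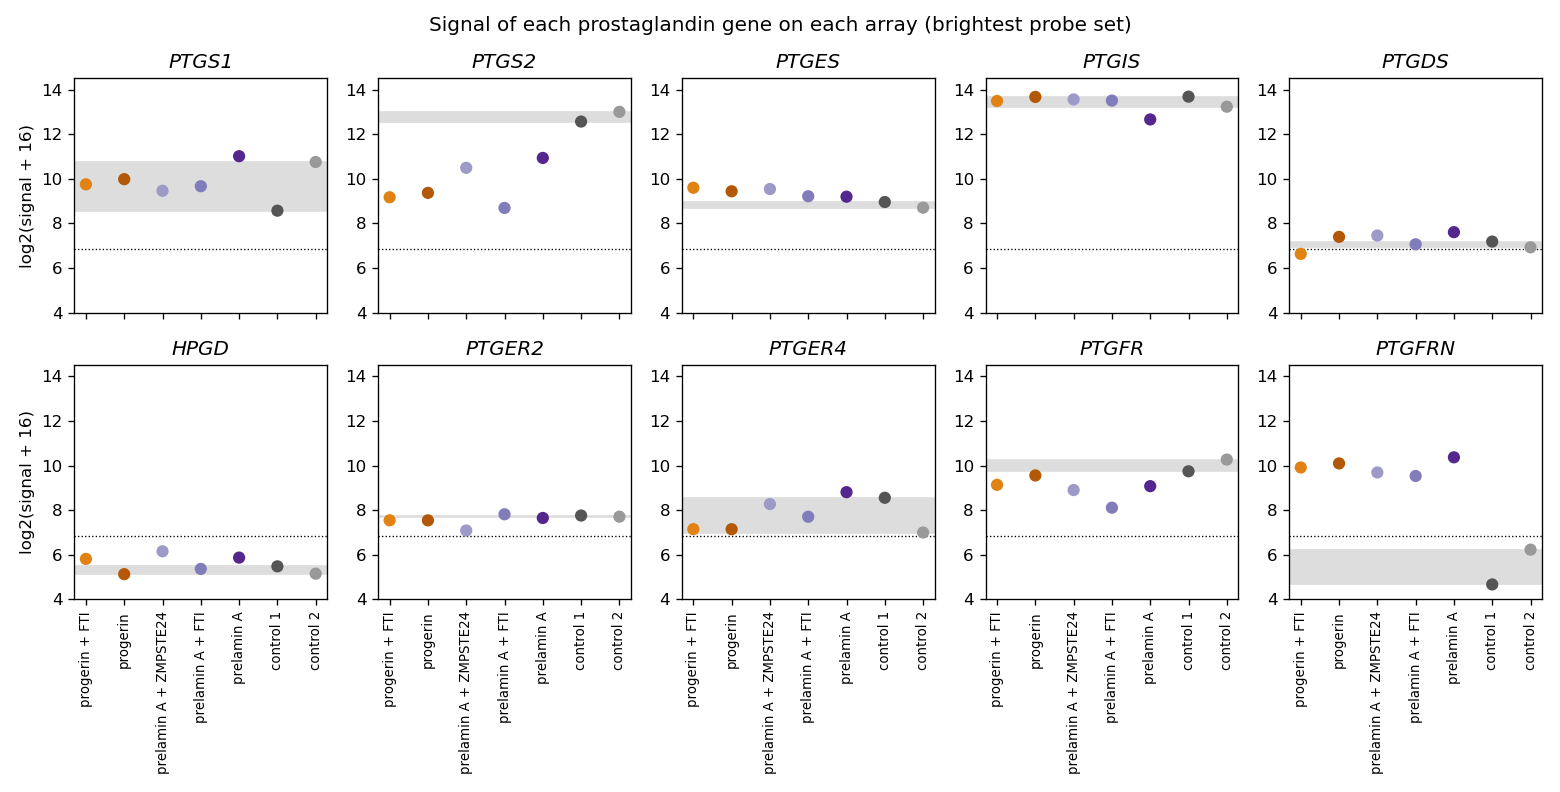
Signal of the brightest probe set of each of the 10 genes as log2(signal + 16), 1 point per array; the grey band spans the 2 controls and the dotted line marks a signal of 100. PTGS2 lies below the control band on all 5 transduced arrays, PTGFRN lies above it on all 5, and HPGD stays under the dotted line on every array.

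PTGS1, the other cyclooxygenase, had no level common to the controls. Probe set 215813_s_at read 845 on the progerin and FTI array, 996 on the progerin array, 689 on the prelamin A and ZMPSTE24 array, 797 on the prelamin A and FTI array and 2050 on the prelamin A array, against 364 on control 1 and 1709 on control 2. The controls lay 2.18 apart, and 4 of the 5 transduced arrays fell between them, with only the prelamin A array above both. The change for prelamin A was 1.35 with an SE of 0.95, and PTGS1 was not called in any comparison. All 4 probe sets of the gene gave control 1 the lowest reading, and the other 3 followed the brightest with r of 0.83 to 1.00.

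Among the terminal synthases, PTGES, which makes prostaglandin E2 and is often induced with PTGS2, was slightly higher on all transduced arrays. Probe set 210367_s_at read 759 with progerin and FTI, 678 with progerin, 728 with prelamin A and ZMPSTE24, 579 with prelamin A and FTI and 571 with prelamin A, against 481 and 401 on the controls. The groups did not overlap, but the changes were small, 0.61 for progerin and 0.36 for prelamin A with an SE of 0.34, and none was called. All 5 transduced arrays lay above both controls for 11.9% of all genes tested. The second probe set, 207388_s_at, read 207 to 282 on the transduced arrays and 146 and 187 on the controls.

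PTGIS, which makes prostacyclin, was lowest on the prelamin A array. Probe set 208131_s_at read 11467 with progerin and FTI, 13031 with progerin, 12044 with prelamin A and ZMPSTE24, 11620 with prelamin A and FTI and 6456 with prelamin A, against 13122 and 9592 on the controls. Every other transduced array lay between the controls, and the prelamin A array lay 0.80 below their mean (SE 0.37, not called). The other probe sets, 210702_s_at and 211892_s_at, also read lowest on the prelamin A array, at 690 and 602, but differed from the brightest in putting both progerin arrays above both controls. Their readings were 2351 and 1572 with progerin and FTI and 1955 and 1923 with progerin, against 1259 and 1118 on control 1 and 1104 and 1194 on control 2. With prelamin A and ZMPSTE24 they read 1100 and 798, below both controls. With prelamin A and FTI 211892_s_at read 1035, also below both.

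PTGDS, the lipocalin-type prostaglandin D2 synthase, lay just inside the signal minimum of 100, with a highest reading of 179. Probe set 211748_x_at read 83.3 with progerin and FTI, 152 with progerin, 160 with prelamin A and ZMPSTE24, 118 with prelamin A and FTI and 179 with prelamin A, against 130 and 106 on the controls. Its other probe sets, 211663_x_at and 212187_x_at, ran against it, with r of -0.36 and -0.49, so no pattern was shared between the probe sets. The ending x_at marks probe sets of which some probes also match other genes.

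HPGD, the dehydrogenase that inactivates prostaglandins, was the only member below that minimum throughout, and its 4 probe sets never exceeded 55.4 on any array. The brightest, 203914_x_at, read 40.4 with progerin and FTI, 19.1 with progerin, 55.4 with prelamin A and ZMPSTE24, 25.3 with prelamin A and FTI and 42.7 with prelamin A, against 28.7 and 19.6 on the controls. At these signals no difference between the arrays could be read.

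Of the receptors, PTGFR, which binds prostaglandin F2-alpha, was lower on all 5 transduced arrays than on both controls. Probe set 1555097_a_at read 547 with progerin and FTI, 738 with progerin, 463 with prelamin A and ZMPSTE24, 261 with prelamin A and FTI and 525 with prelamin A, against 842 and 1218 on the controls. The order began with the prelamin A and FTI array as the lowest and ended with the progerin array as the transduced array nearest to the controls. COL3A1 was also lowest on the prelamin A and FTI array, and its part in the PTGS2 and PTGFR readings there was not tested. Below both controls on all 5 arrays were 12.3% of the genes tested. The changes were -0.45 for progerin and -0.93 for prelamin A, neither called, -0.87 with progerin and FTI, -1.10 with prelamin A and ZMPSTE24 and -1.89 with prelamin A and FTI (SE 0.38 each), of which the last 2 were called.

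The second probe set of PTGFR, 207177_at, followed the first with an r of 0.96. It read 410 with progerin and FTI, 810 with progerin, 361 with prelamin A and ZMPSTE24, 224 with prelamin A and FTI and 406 with prelamin A, against 1043 and 1182 on the controls. On this probe set the change for prelamin A was larger, -1.42, and that with progerin and FTI was -1.40.

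PTGER2 and PTGER4 encode the EP2 and EP4 receptors of prostaglandin E2, both of which raise cyclic AMP. PTGER2, probe set 206631_at, read 171 with progerin and FTI, 171 with progerin, 120 with prelamin A and ZMPSTE24, 210 with prelamin A and FTI and 185 with prelamin A, against 201 and 193 on the controls. No array departed from the mean of the controls by more than 0.65, the value of the prelamin A and ZMPSTE24 array. PTGER4, probe set 204897_at, read 126 with progerin and FTI, 126 with progerin, 294 with prelamin A and ZMPSTE24, 193 with prelamin A and FTI and 432 with prelamin A, against 361 on control 1 and 112 on control 2. The controls lay 1.56 apart, and the prelamin A array alone fell outside their range, and neither gene was called. The second probe set of PTGER4, 204896_s_at, did not exceed 89.6 and did not follow the first, with an r of -0.10.

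PTGFRN encodes a membrane protein named for its inhibition of prostaglandin F2-alpha binding to PTGFR, and is known as a partner of the tetraspanins CD9 and CD81. It was near the floor of the array in control cells and well above it in all transduced cells. Probe set 224937_at read 950 with progerin and FTI, 1080 with progerin, 811 with prelamin A and ZMPSTE24, 726 with prelamin A and FTI and 1308 with prelamin A, against 9.50 and 59.1 on the controls. The groups were far apart, and the 3 treated arrays read below both untreated lamin arrays.

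Against control the PTGFRN change was 4.65 for progerin and 4.92 for prelamin A, with an SE of 0.71. It was 4.46 with progerin and FTI, 4.08 with prelamin A and FTI and 4.24 with prelamin A and ZMPSTE24. More than 2-fold above both controls on all 5 arrays were 1.3% of the genes tested. PTGFRN passed the signal minimum only through the transduced arrays. Since both controls read below 100 and lay 1.56 apart, the size of these changes depends on the constant added before taking logs, and only their direction and the separation of the arrays rest on the signals themselves.

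The second PTGFRN probe set, 224950_at, separated the transduced arrays from the controls as well, with an r of 0.99 that rests on this gap. It read 485 with progerin and FTI, 423 with progerin, 494 with prelamin A and ZMPSTE24, 474 with prelamin A and FTI and 722 with prelamin A, against 12.3 and 54.1 on the controls. Here the 3 treated arrays read above the progerin array, so the order among the transduced arrays was not shared. Its changes against control were 3.46 to 3.52 on the treated arrays, 3.30 for progerin and 4.05 for prelamin A.

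**Figure D2:**
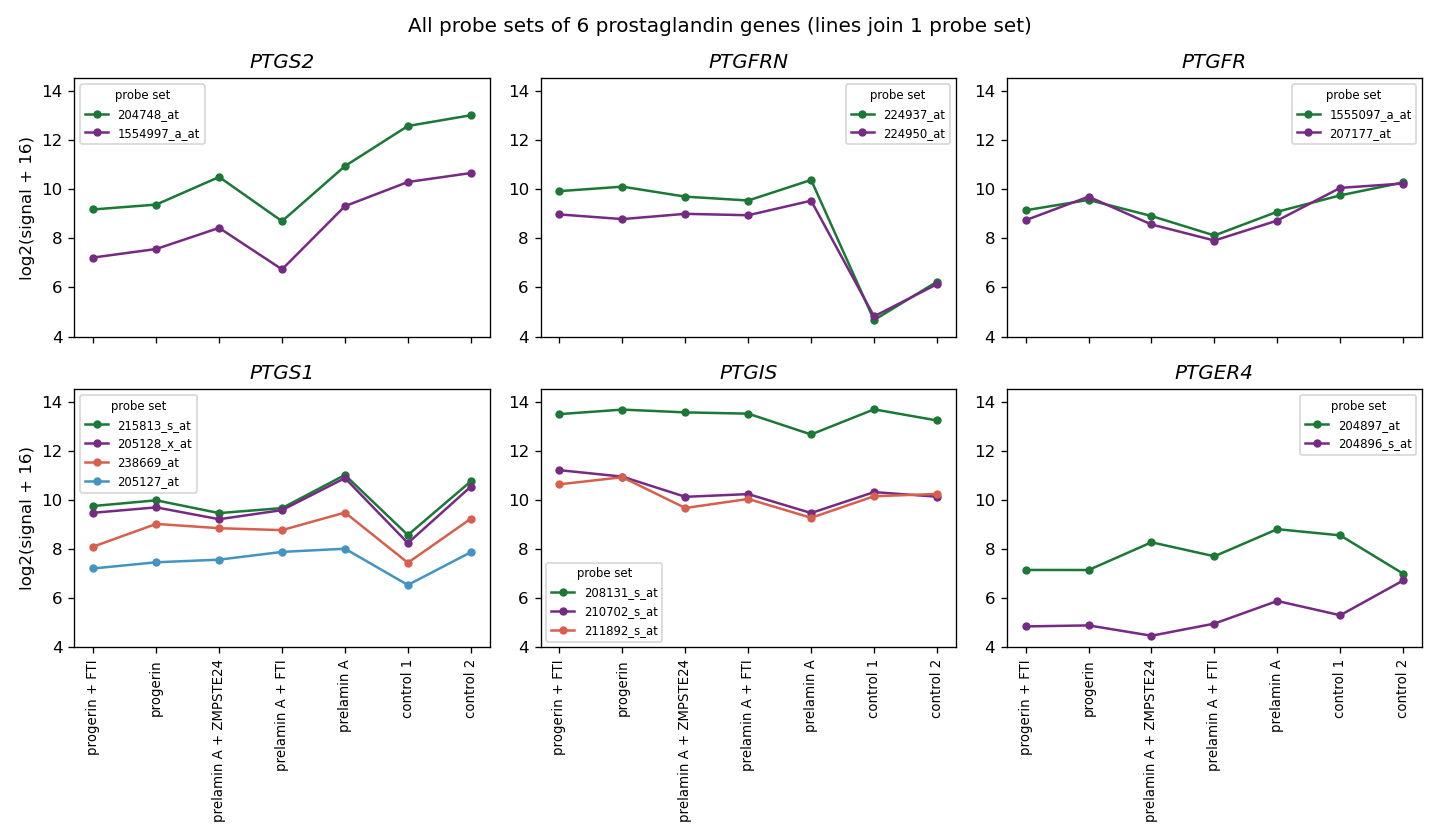
All probe sets of 6 of the genes, as log2(signal + 16) on the 7 arrays, with a line joining the points of 1 probe set. The probe sets of PTGS2, PTGFRN and PTGFR have r of 0.99, 0.99 and 0.96, with those of PTGFRN differing in order among the transduced arrays, while the 2 of PTGER4 part at the controls.

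Counted over the 9 members tested, 1 was called higher (PTGFRN) and 1 lower (PTGS2) in progerin cells against control, where 3.76% and 2.04% of all genes were called in these directions. In prelamin A cells against control the same 2 members were called, beside 6.29% of genes called higher and 4.02% called lower. With progerin and FTI against control they were again the only 2, beside 3.13% and 2.57%. With prelamin A and FTI (5.32% of genes higher, 4.37% lower) and with prelamin A and ZMPSTE24 (4.78% and 3.6%), PTGFR joined PTGS2 among the members called lower. The PTGFR call with prelamin A and ZMPSTE24 was lost with a pseudocount of 1, when dim probe sets were kept, and at an unadjusted p under 0.01. The median change of the 9 members was 0.22 with progerin and 0.36 with prelamin A, against 0.0072 and -0.019 over all genes. The members showed no common direction, and those called were 1 enzyme, 1 receptor and 1 receptor-associated protein.

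Leukocyte markers were examined beside these values because CD14, a monocyte surface protein, was called higher on all 5 transduced arrays. Of all genes, 3.13% to 6.29% were called higher in these comparisons, which share the same controls. CD14 passed the signal minimum only through the transduced arrays, as both controls read below 100. It read 198 with progerin and FTI, 329 with progerin, 575 with prelamin A and ZMPSTE24, 311 with prelamin A and FTI and 320 with prelamin A, against 87.2 and 55.3 on the controls. The other leukocyte markers measured, PTPRC and ITGAM, did not exceed 55.5 and 57.6 on any array, and the summed signal of the 3 was 258 to 629 on the transduced arrays and 133 to 162 on the controls. Of the keratinocyte, endothelial and melanocyte markers, 3 of 4, 3 of 4 and 3 of 3 stayed below 100 on every array. The remaining keratinocyte marker, KRT10, read at least 100 on every array. Summed keratinocyte signals were 5048 to 6554 on the transduced arrays and 7594 to 10711 on the controls. KRT10 changed by -0.67 with progerin and with prelamin A and was not called. The remaining endothelial marker, PECAM1, reached 100 on some arrays and was not called either.

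**Figure D3:**
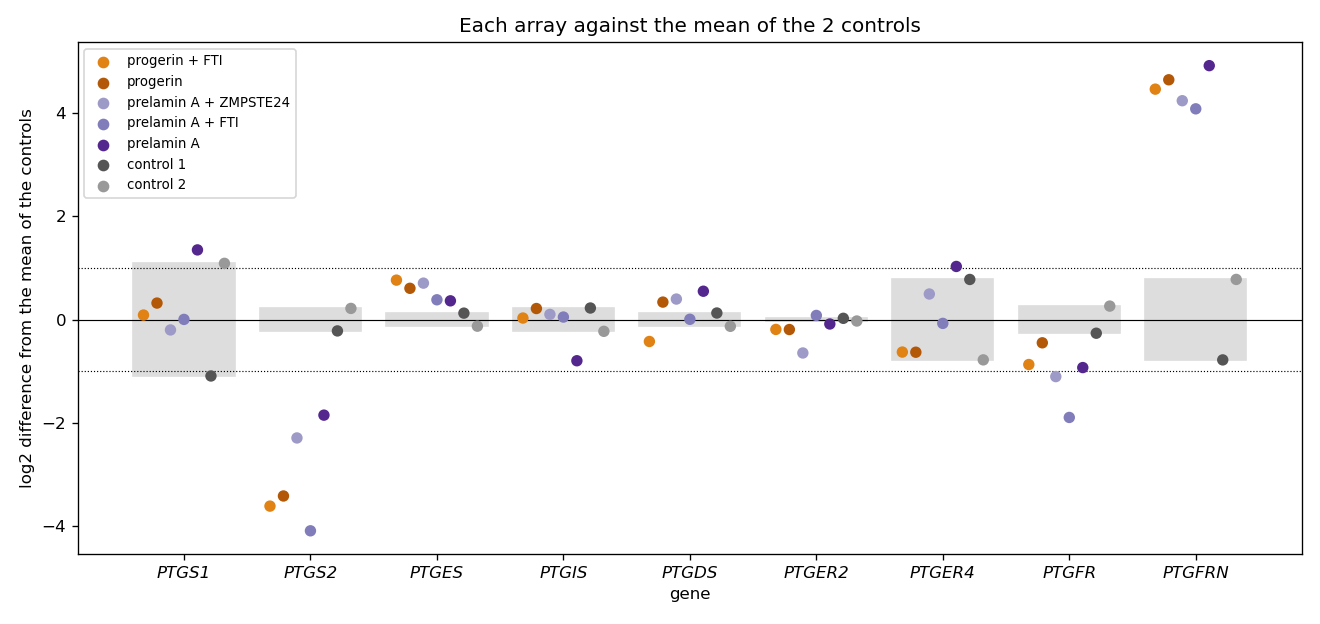
Change of each of the 9 members tested on each array, as the log2 difference from the mean of the 2 controls; grey bars span the controls and dotted lines mark 2-fold. The 5 PTGFRN points lie between 4.08 and 4.92, the 5 PTGS2 points between -4.09 and -1.85, and the control bars of PTGS1, PTGER4 and PTGFRN are wide.

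The second question was whether treatment brought these genes back toward the control level. In progerin cells FTI moved no member past the call (1.45% of all genes were called in either direction), and no member reached an unadjusted p under 0.05 either. PTGS2 differed there by -0.20 (SE 0.42) and PTGFRN by -0.18 (SE 0.82), with 0.19 on the second PTGFRN probe set. The PTGFR change with FTI in progerin cells was -0.42 on the brightest probe set and -0.96 on the other, away from the controls on both.

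In prelamin A cells FTI was accompanied by a lower PTGS2, the single member called (1.62% of all genes were called lower). PTGS2 read 398 with prelamin A and FTI, against 1940 with prelamin A, a change of -2.24 (SE 0.42) that took it further from the controls. The second probe set gave -2.57. The FTI effect on PTGS2 was lower by -2.04 (SE 0.60) in prelamin A cells than in progerin cells, and 0.747% of all genes were called lower in that difference, a comparison added after the data had been seen. PTGFR, at -0.97 (SE 0.44), PTGS1, at -1.35 (SE 1.09), PTGER4, at -1.10 (SE 0.82), and PTGFRN, at -0.84 (SE 0.82), had lower readings that were not called. PTGIS had a higher reading, by 0.85 (SE 0.43), which put its brightest probe set between the controls, while 211892_s_at, at 1035, stayed below both.

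With ZMPSTE24 no member was called against prelamin A alone, where 5.04% of all genes were called in either direction, and none had an unadjusted p under 0.05. PTGS2 changed by -0.44 (SE 0.42) on the brightest probe set and by -0.88 on the other. PTGS1 was lower by -1.55 with an SE of 1.09, and PTGIS was higher by 0.90 with an SE of 0.43, again to a level between the controls on the brightest probe set but not on the others, which read 1100 and 798, below both controls.

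Across both lamins, on the brightest probe sets, 5 of the 9 members, PTGDS, PTGFR, PTGFRN, PTGS1 and PTGS2, read lower on all 3 treated arrays than on the untreated array of the same lamin, as 20.3% of all genes did, and 1, PTGES, read higher on all 3, as 16.8% did. Every probe set read lower on all 3 treated arrays for 3 genes, PTGS1, PTGS2 and PTGFR, whereas those of PTGDS, PTGFRN and PTGES were divided. The FTI and ZMPSTE24 comparisons of prelamin A share 1 untreated array, so a high reading there lowers both. The median change of the 9 members was -0.18 with FTI in progerin cells, -0.84 with FTI in prelamin A cells and -0.44 with ZMPSTE24, against -0.0093, -0.015 and -0.022 over all genes.

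**Figure D4:**
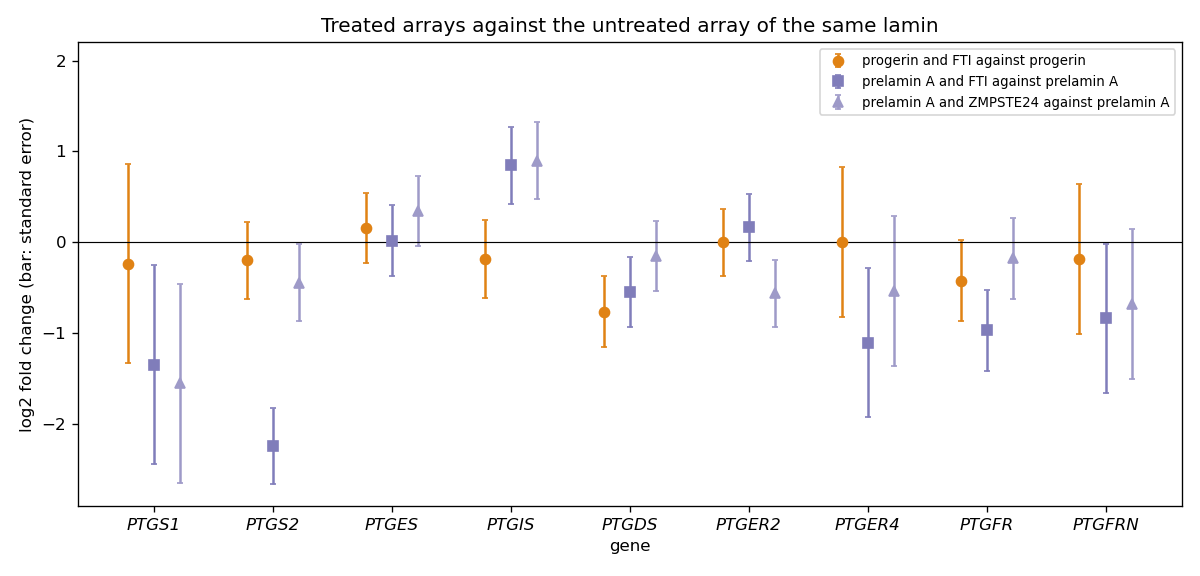
Log2 fold change of each of the 9 members between a treated array and the untreated array of the same lamin, with bars of 1 standard error from the limma fit of 6 conditions. PTGS2 with FTI in prelamin A cells, at -2.24, is the single member called, and the 3 PTGFRN points, at -0.18, -0.84 and -0.68, lie within about 1 standard error of 0.

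The lamins were also set against each other, again as a comparison added later. PTGS2 was higher on the prelamin A array than on the progerin array by 1.57 (SE 0.42) and was the only member called, while 3.59% of all genes were called higher. PTGER4 differed by 1.66 (SE 0.82) and PTGIS by -1.01 (SE 0.43), neither called. PTGFRN differed by 0.27 (SE 0.82).

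Pooling the arrays into 3 states (treated, lamin without treatment, and control) left 4 residual degrees of freedom. Here a gene was called at an adjusted p under 0.05. Progerin and prelamin A arrays, and FTI and ZMPSTE24 arrays, served in this fit as replicates of a state, so their differences add to its SEs. PTGFRN was the 1 member called in treated arrays against control, with 4.26 (SE 0.44), where 0.849% of all genes were called higher. It was also the 1 member called in lamin arrays against control, with 4.78 (SE 0.48), where 0.464% of genes were called higher. PTGS2, at -3.33 (SE 0.64) and -2.63 (SE 0.70) in these comparisons, was not called, with limma adjusted p of 0.075 and 0.220. As the controls of PTGFRN read below 100, its size, SE and call are set against a floor. PTGFRN also passed the signal minimum only through the transduced arrays, so its calls and adjusted p here are a description and no support. Against the lamin arrays no gene was called in treated arrays, while 253 genes, none of them a member, had an unadjusted p under 0.05. With 1 array left out in turn, the PTGFRN change stayed at 3.48 to 5.04 in treated arrays and at 4.00 to 5.56 in lamin arrays against control, but the limma adjusted p was above 0.05 in some of these smaller fits. In treated arrays it was 0.051 without the progerin and FTI array, 0.056 without the prelamin A and FTI array and 0.0895 without the prelamin A and ZMPSTE24 array. In lamin arrays it was 0.071 without the progerin array, 0.147 without the prelamin A array and 0.058 without the prelamin A and ZMPSTE24 array.

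The nearby pathway was read from lists of related genes. Of 24 measured inducers and transcription factors of PTGS2 and PTGES, 1 was called higher and 1 lower with progerin, and 2 higher and 1 lower with prelamin A, beside the shares over all genes (3.76% higher and 2.04% lower with progerin, 6.29% and 4.02% with prelamin A). The gene called lower was IL6, the inflammatory cytokine, which read 1763 with progerin and FTI, 1351 with progerin, 2213 with prelamin A and ZMPSTE24, 771 with prelamin A and FTI and 1312 with prelamin A, against 10434 and 7979 on the controls. Its changes against control were -2.74 with progerin and -2.78 with prelamin A, and as with PTGS2 the prelamin A and FTI array was the lowest. Those called higher were FOSL1, an AP-1 subunit, by 1.01 with progerin, and IL1A and its antagonist IL1RN by 1.22 and 2.62 with prelamin A. IL1A and IL1RN are dim, with highest signals of 104 and 190.

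EGR1 and FOS, immediate early factors, split the arrays in another way, which JUN and ZFP36 of the same list did not share. JUN read 6849 to 9041 on the transduced arrays, against 5727 and 5968 on the controls. ZFP36 read 1904 to 3149 on the transduced arrays, against 1596 and 1311 on the controls. EGR1 read 3191 with progerin and FTI and 4554 with progerin, but 30271 with prelamin A and ZMPSTE24, 27261 with prelamin A and FTI and 32422 with prelamin A, against 33045 on control 1 and 6347 on control 2. FOS read 53.6, 95.8, 422, 526 and 1081 on the transduced arrays in the same order, against 1131 on control 1 and 156 on control 2. For EGR1 the prelamin A arrays lay near control 1 and the progerin arrays below control 2, and for PTGER4 the progerin arrays also read close to control 2. Of the 1181 genes on which the controls lay over 2-fold apart, 72.6% were nearer to control 1 on the prelamin A and ZMPSTE24 array, 66.1% on the prelamin A and FTI array and 60.3% on the prelamin A array, but 52.2% on the progerin and FTI array and 48.9% on the progerin array. The part of this in the PTGER4 and PTGS1 readings was not tested.

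Other prostanoid receptors had 1 of 6 measured genes called higher with progerin and 1 with prelamin A, and none lower, where 3.76% and 6.29% of all genes were called higher. PTGER3, which encodes the EP3 receptor of prostaglandin E2, read 255 with progerin and FTI, 317 with progerin, 461 with prelamin A and ZMPSTE24, 1044 with prelamin A and FTI and 783 with prelamin A, against 270 and 190 on the controls. It was called higher with prelamin A, by 1.72, and with prelamin A and FTI, by 2.13, beside 6.29% and 5.32% of all genes. PPARG, a nuclear receptor for prostaglandin J2 derivatives among other lipids, was called higher with progerin, by 1.06. PTGIR, the prostacyclin receptor, was called higher with progerin and FTI, by 1.09, beside 3.13% of all genes.

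Genes of arachidonate release had 2 of 10 measured genes called higher with prelamin A and none with progerin, beside 6.29% and 3.76% of all genes. These were PLA2G4C, a cytosolic phospholipase A2, by 1.71, and PLCB4, a phospholipase C, by 1.26. PLA2G4A, the main cytosolic phospholipase A2 of the pathway, read 679 with prelamin A and FTI, against 1532 with prelamin A. It was called lower by -1.15, beside 1.62% of all genes called lower in that comparison. Of 6 genes of transport and breakdown, ABCC4, an exporter of prostaglandins, was called higher with prelamin A, by 1.11, beside 6.29% of all genes. None of 5 other prostanoid synthases was called in any comparison, and none had an unadjusted p under 0.05.

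Downstream, 1 of 13 genes of cyclic AMP signalling was called higher with progerin and 1 with prelamin A, beside 3.76% and 6.29% of all genes. PDE4B, which degrades cyclic AMP, read 10275 on the prelamin A array, against 4049 and 4164 on the controls, a change of 1.32. It was called lower with prelamin A and ZMPSTE24 against prelamin A, by -1.37, beside 2.85% of all genes. PDE4D was called higher with progerin, by 1.18, at signals of no more than 112. CD82, a tetraspanin, was among 7 measured genes listed as possible partners of PTGFRN. Readings of CD82 were 342 with progerin and FTI, 801 with progerin, 459 with prelamin A and ZMPSTE24 and 232 with prelamin A and FTI. With prelamin A it read 346, against 252 and 258 on the controls. It was called higher with progerin, by 1.59, beside 3.76% of all genes. With progerin and FTI against progerin it was called lower, by -1.19, beside 0.951% of all genes. None of the other measured genes of that list was called in any comparison. The changes of CD9 and CD81 were -0.12 and 0.44 with progerin and -0.65 and 0.21 with prelamin A.

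**Figure D5:**
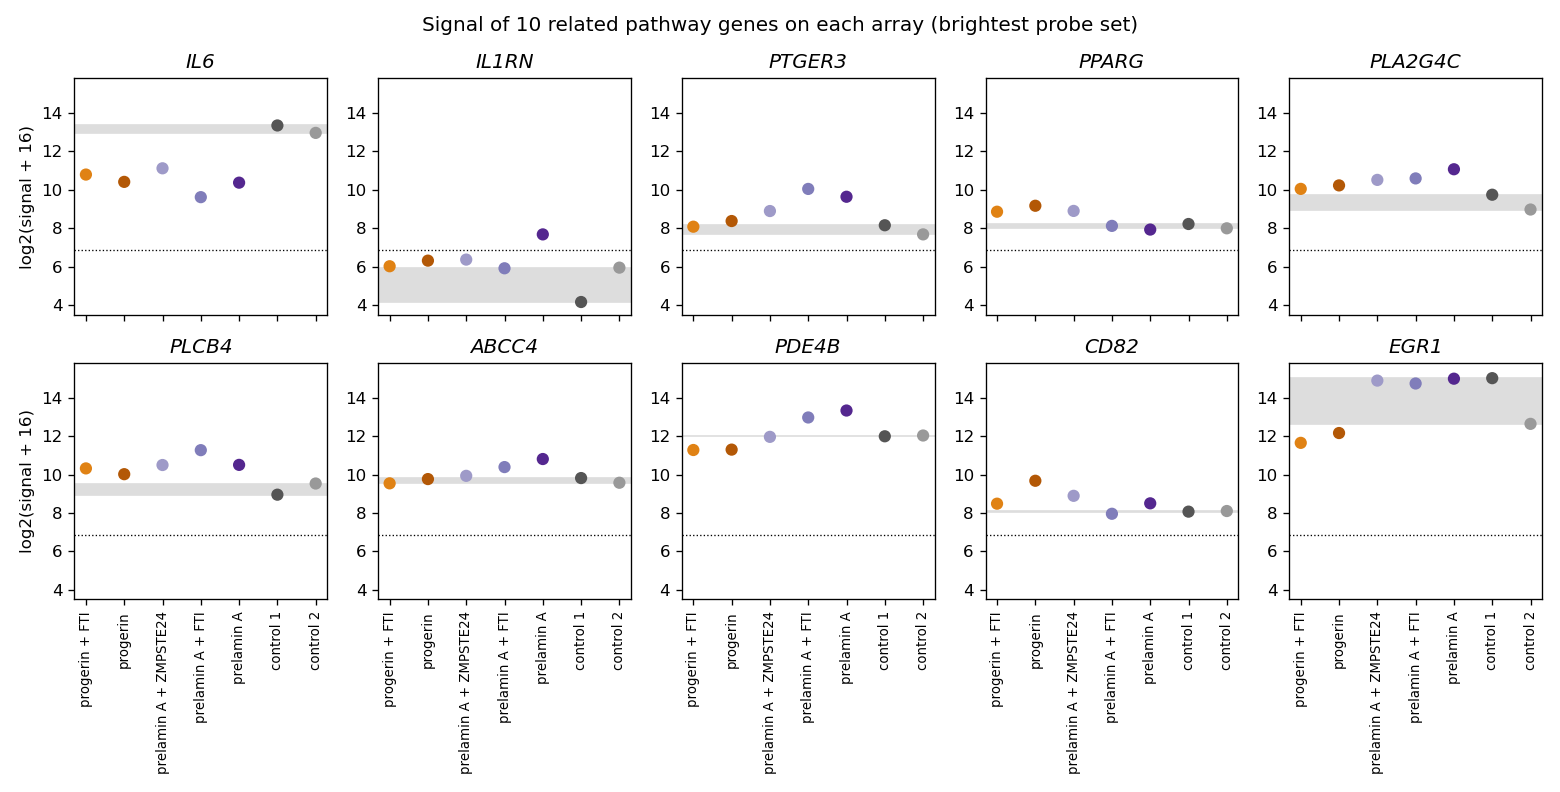
Signal of 10 related genes as log2(signal + 16), 1 point per array; the grey band spans the controls and the dotted line marks a signal of 100. IL6 lies below the controls on all 5 transduced arrays, PTGER3 is highest on the prelamin A and FTI and the prelamin A arrays, and EGR1 is low on both progerin arrays and on control 2.

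For the 4 members whose readings spanned at least 2 on the log2 scale, the genes of most similar course were taken from the 12726 tested, by Pearson r over the 7 arrays. PTGS2 was followed most closely by LRRC49 (0.990), ATG101 (0.978) and EEF2K (0.978). PTGFRN was followed by IGFBP4 (0.991), RNF157 (0.990) and SERPINB9P1 (0.989), and PTGFR by CTSO (0.990), ZBTB34 (0.986) and PPRC1 (0.980). PTGS1 was followed by ATXN2L (0.987), GAS1 (0.977) and RAD54L2 (0.973). These are the highest of 12726 values over 7 arrays that share 2 controls. IGFBP4, a binding protein of insulin-like growth factors, read 13987 to 17035 on the transduced arrays, against 7007 and 9043 on the controls. RNF157 read 28.6 and 33.8 on the controls, and SERPINB9P1 read 41.5 and 50.6. Both passed the signal minimum only through transduced arrays, as PTGFRN did, and their r rests on the gap from the controls.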

How the data were processed

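RNA of fibroblasts at passage 10 was measured on 7 whole-genome arrays of Affymetrix. The authors deposited intensity values, the MAS 5.0 signal per probe set on a linear scale, after background correction, summarisation and scaling to a common target, which fixes the overall level of each array. The S-score test of the authors works on probe-level values and was not repeated.

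The platform annotation gave 1 gene to 41091 of 54675 probe sets. Genes that reached a signal of 100 on any array were kept, 1 probe set each, and log2(signal + 16) was fitted in R 4.3.3 with limma 3.58.1, with 6 conditions (1 residual and 3.50 prior degrees of freedom) and with 3 states (4 and 2.60). Groups came from the labels. Adjusted p-values are from Benjamini-Hochberg over 12726 genes. The fits were checked on simulated data. The number of arrays limits the precision.

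The members and gene lists were chosen with earlier results of these data known. The genes named are all members and the listed genes called against control in either lamin. The 3 genes most like each member that spans 2 log2 units are named as well. The 3 brightest genes of each list were also to be named, but several, among them CEBPB, are not. Other listed genes were named after their values were seen. A list of the lipoxygenase branch was read but is not described. The alternatives tried were pseudocounts of 1 and 64, quantile normalization, centring on the median, other filters and thresholds, an intensity trend, another probe set, lamin as a block and leaving out arrays.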

Additional observations from a re-analysis of the deposited data

Results flagged for a closer look

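The FTI effect on PTGS2 differed between the lamins. With FTI, PTGS2 changed by -2.24 (SE 0.42) in prelamin A cells and by -0.20 (SE 0.42) in progerin cells, a difference of -2.04 (SE 0.60) on the log2 scale, in the limma fit of 6 conditions. The comparison was added after the data had been seen. It passed the call of over 2-fold with an unadjusted p under 0.05, as 0.747% of genes did in the lower direction, but had an adjusted p of 1.0, and each effect rests on 1 treated and 1 untreated array. The signals were 561 with progerin and FTI, 645 with progerin, 398 with prelamin A and FTI and 1940 with prelamin A, against 6043 and 8181 on the controls.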

How the results depend on the processing

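The limits are these: every condition apart from control has 1 array, the controls set the spread in the fit of 6 conditions, and dim probe sets depend on the pseudocount. Replicates could not be paired, because only the controls carry replicate numbers, but treated and untreated arrays could be matched by their lamin. With the lamin as a block, 0 genes were called between treated and untreated lamin arrays, as without it, and the PTGS2 change was -0.85 (SE 0.59). No called change of a member turned direction under the alternatives run. Of the member changes recomputed, 601 moved by less than the control spread and 39 by more, 27 of these with the next brightest probe set. The 601 hold settings whose outcome was fixed. Leaving out either control shifts a change by less than that spread, and the other filters left the member values unaltered. All 72 changes in each of these settings therefore counted as unmoved and say nothing about stability. Counts of members called in the fit of 6 conditions did not alter in number, except that PTGFR was not called and 1 member rather than 2 was lower with prelamin A and ZMPSTE24 against control under a pseudocount of 1, no filter, or an unadjusted p under 0.01. In the 3-state fit, a pseudocount of 1 left 0 members called in lamin arrays against control, and an intensity trend or an adjusted p under 0.1 added 1 lower member in treated arrays against control. Leaving out either control left no residual degree of freedom in the fit of 6 conditions, so only changes were recomputed.

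Counts over all genes moved as follows, and the cause was not tested apart from the number of genes or the threshold itself. In progerin against control 738 genes were called, 1238 with no filter and 267 at an unadjusted p under 0.01. In prelamin A against control the 1312 genes became 519 at that p. In progerin and FTI against progerin the 185 genes became 60 with a pseudocount of 64, 600 with no filter, 69 with a mean signal of at least 100, 53 with an intensity trend and 31 at p under 0.01. In prelamin A and FTI against prelamin A the 358 genes became 221, 913, 197, 186 and 73 under the same settings. In prelamin A and ZMPSTE24 against prelamin A the 641 genes became 1176 with no filter and 185 at p under 0.01. Against control, progerin and FTI had 725 genes, 1272 with no filter and 267 at p under 0.01, prelamin A and FTI had 1233 and 488 at p under 0.01, and prelamin A and ZMPSTE24 had 1066, 1650 with no filter and 425 at p under 0.01. In the 3-state fit, lamin arrays against control had 71 genes, 31 with no filter, 142 at an adjusted p under 0.1 and 0 to 39 when 1 array was left out. Treated arrays against control had 138, 68 with no filter, 220 with an intensity trend, 336 at an adjusted p under 0.1 and 9 to 107 when 1 array was left out.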
